A study of Mus musculus with 6 samples.

Results

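The genes described here are 36 genes of glucose breakdown and of the response to low oxygen, taken by symbol from the 24421 rows of each of the authors' 2 full tables. They comprise 2 glucose transporters, 10 genes of upper and 8 of lower glycolysis, the 2 lactate dehydrogenase genes, 6 genes of the pyruvate dehydrogenase step, and 8 targets or regulators of the hypoxia response. All 36 symbols were found once in each table, and 35 had a base mean (mean normalised read count) of at least 10 and count as measured, the exception being Eno1. RNA-seq was made from the anterior palatal mesenchyme of C57BL/6 embryos at E12.5, freed of its epithelium with Dispase II. The 3 mutant samples were Wnt1Cre;Meis2f/f, in which Cre acts on floxed Meis2 in cells that express or descend from cells that expressed Wnt1Cre, which is active in neural crest, and the 3 reference samples were wildtype (WT). Muscle, blood, macrophages and vessel endothelium do not come from that lineage and so keep Meis2 in the mutant, while no sample with Cre alone was analysed here, so an effect of the transgene and one of Meis2 loss cannot be told apart. By the labels the 3 samples per genotype are biological replicates, without saying how many embryos each held.

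Cells take up glucose through the transporters of the Slc2a family, split it in the cytosol to pyruvate, and either reduce pyruvate to lactate or pass it into mitochondria through the pyruvate dehydrogenase complex, which the Pdk kinases switch off. When oxygen is short, the prolyl hydroxylases of the Egln family stop marking HIF1A, the protein of Hif1a, for breakdown, and HIF then raises transcription of most glycolytic genes, of Pdk1 and of targets such as Bnip3, Ankrd37, Egln3, Car9, Adm and Ndrg1. Several steps have isoforms with a preferred tissue, such as Pgam2, Eno3 and Pfkm in muscle, Eno2 in neurons and Aldoc in brain.

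HIF binds a short core, ACGTG or GCGTG. The 250 bases upstream of the start site are shown for the 4 genes with the lowest unadjusted p among the 36, read 5′ to 3′ on the strand of the gene, from RefSeq on GRCm38.p6. Capitals mark the HIF core on either strand, and in Pgam2 a match to the binding consensus of the muscle factor MEF2. Where a gene has several start sites, the one with most matches is shown.
Ldha: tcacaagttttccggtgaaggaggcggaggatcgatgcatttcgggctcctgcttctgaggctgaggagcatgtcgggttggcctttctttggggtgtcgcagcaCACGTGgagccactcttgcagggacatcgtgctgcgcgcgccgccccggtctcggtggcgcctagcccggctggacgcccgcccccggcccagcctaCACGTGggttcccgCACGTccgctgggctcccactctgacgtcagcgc
Tpi1: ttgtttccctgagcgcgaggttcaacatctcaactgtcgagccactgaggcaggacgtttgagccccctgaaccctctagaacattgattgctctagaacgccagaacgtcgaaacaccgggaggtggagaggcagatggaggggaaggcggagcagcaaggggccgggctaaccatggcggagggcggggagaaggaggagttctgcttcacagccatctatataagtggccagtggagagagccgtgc
Aldoa: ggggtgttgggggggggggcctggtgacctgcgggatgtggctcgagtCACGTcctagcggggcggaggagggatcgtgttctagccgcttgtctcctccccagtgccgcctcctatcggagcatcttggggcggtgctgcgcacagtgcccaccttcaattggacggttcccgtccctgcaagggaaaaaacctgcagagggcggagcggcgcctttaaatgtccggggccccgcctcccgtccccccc
Pgam2: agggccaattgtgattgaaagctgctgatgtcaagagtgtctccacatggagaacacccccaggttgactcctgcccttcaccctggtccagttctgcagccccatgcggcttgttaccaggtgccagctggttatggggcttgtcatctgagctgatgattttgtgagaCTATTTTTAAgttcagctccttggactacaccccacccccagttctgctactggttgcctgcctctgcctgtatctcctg
The windows lie at chr7:46845554-46845803 on the plus strand for Ldha, and on the minus strand at chr6:124814159-124814408 for Tpi1, chr7:126799179-126799428 for Aldoa and chr11:5803797-5804046 for Pgam2. That of Ldha holds 5 matches to the HIF core, among them the palindrome CACGTG at 2 places, where both strands match. Aldoa has 1 match and the Tpi1 and Pgam2 windows have 0. Of the 34 genes with a listed promoter (Slc2a3 and Ndrg1 have no entry), 30 (88.2%) hold the core in at least 1 window, against 60.4% of 10817 measured genes with a promoter and 41.5% of all 27025. CACGTG occurs in 6 of the 34, or 17.6%, against 9.73% of the measured genes. The MEF2 consensus occurs in 1 of the 34, Pgam2, or 2.94%, against 1.95% of the measured genes. A match is a description of the letters in the window and not of binding.

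The series text describes each table as a comparison of 1 mutant with 1 WT replicate of the same number, but the levels of genes with a single read show 6 libraries in the first table and 4 of the same 6 in the second. The second leaves out 1 library of each genotype, and neither table gives values per library, so no spread over single samples can be shown. Size factors read from genes with a single read ran from 0.775 to 1.44, and the base means summed to 15317259 per the authors' deposited table of 6 libraries. Fold changes are mutant over WT, a sign read from Meis2, whose log2 fold change was -0.28 (SE 0.092, adjusted p 0.0743) with 6 and -0.33 (SE 0.093, adjusted p 0.0213) with 4 libraries per the authors' deposited table. The sign is therefore no separate check of the labels. The authors' fold changes are shrunk toward 0 (moderated), the more so at low counts, so an estimate with the moderation undone is given for the genes that matter. Palatal mesenchyme markers were abundant, with base means of 16535 for Pdgfra and 10660.0 for Prrx1 per the authors' deposited table. Markers of muscle (Ttn, 9640.4), epithelium (Cdh1, 242) and vessel endothelium (Kdr, 1977.5) were present as well by their base means per the authors' deposited table. The longest coding transcript of Ttn has 106820 bases, so its base mean is only 90.2 per kb. In such bulk samples a lower level in fewer cells and less RNA per cell cannot be told apart.

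None of the 35 genes passed the genotype test. Taking adjusted p under 0.05 (DESeq2 Wald test over all genes) 0 rose and 0 fell with 6 libraries, where the background was 1.75% higher and 1.16% lower of 14942 genes (2.9% in all), per the authors' deposited table. With 4 libraries the counts were again 0 and 0, against 1.31% and 0.99% of 14548 genes (2.3% in all), per the authors' deposited table. At an unadjusted p under 0.05, 1 gene of the 35 was higher (Pgam2) and 3 were lower (Ldha, Tpi1 and Aldoa) with 6 libraries, where the background among 14579 genes was 5.46% and 5.21% per the authors' deposited table. With 4 libraries 1 was higher (Pgam2) and 3 were lower (Tpi1, Ldha and Pkm) at that p, with a background of 4.69% and 4.73% per the authors' deposited table. The lowest adjusted p of the 35 was 0.110 with 6 libraries and 0.264 with 4, so 0 genes passed at 0.1 either, where the background was 3.68% and 3.06%. The 4-library comparison shares all its libraries with the larger one and is no independent repeat.

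The deviations were small and mostly to one side. The median log2 fold change of the 35 was -0.10, within a range from -0.29 (Ldha) to 0.43 (Pgam2), and 28 of the 35 lay below 0, per the authors' deposited table of 6 libraries. Over all genes whose base mean was at least 10 the median was -0.013 and 54.0% lay below 0 per the authors' deposited table. Among the 16 members whose base mean was at least 500, 15 lay below 0 (the exception is Pfkm) and the median was -0.12, where 60.3% of all genes at that level lay below 0 and their median was -0.030, per the authors' deposited table. The sum of the estimated means of the 35 genes was 26870 normalised reads in the mutant and 29690 in WT. For all measured genes these sums were 15040000 in the mutant and 15500000 in WT, so the total was lower in the mutant as well. With 4 libraries the median was -0.056 and 26 of 35 lay below 0, against 50.8% of all genes, and 15 of the 16 abundant ones did, against 57.5%, per the authors' deposited table. These medians are moderated. With the moderation undone, the median of the 35 was -0.115 with 6 and -0.105 with 4 libraries. Genes of a module share libraries and may vary together, so these counts describe the 6 libraries and carry no p. The smallest absolute log2 fold change among called genes whose base mean was at least 500 was 0.28, and among the 16 Ldha alone lay beyond that size.

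**Figure D1:**
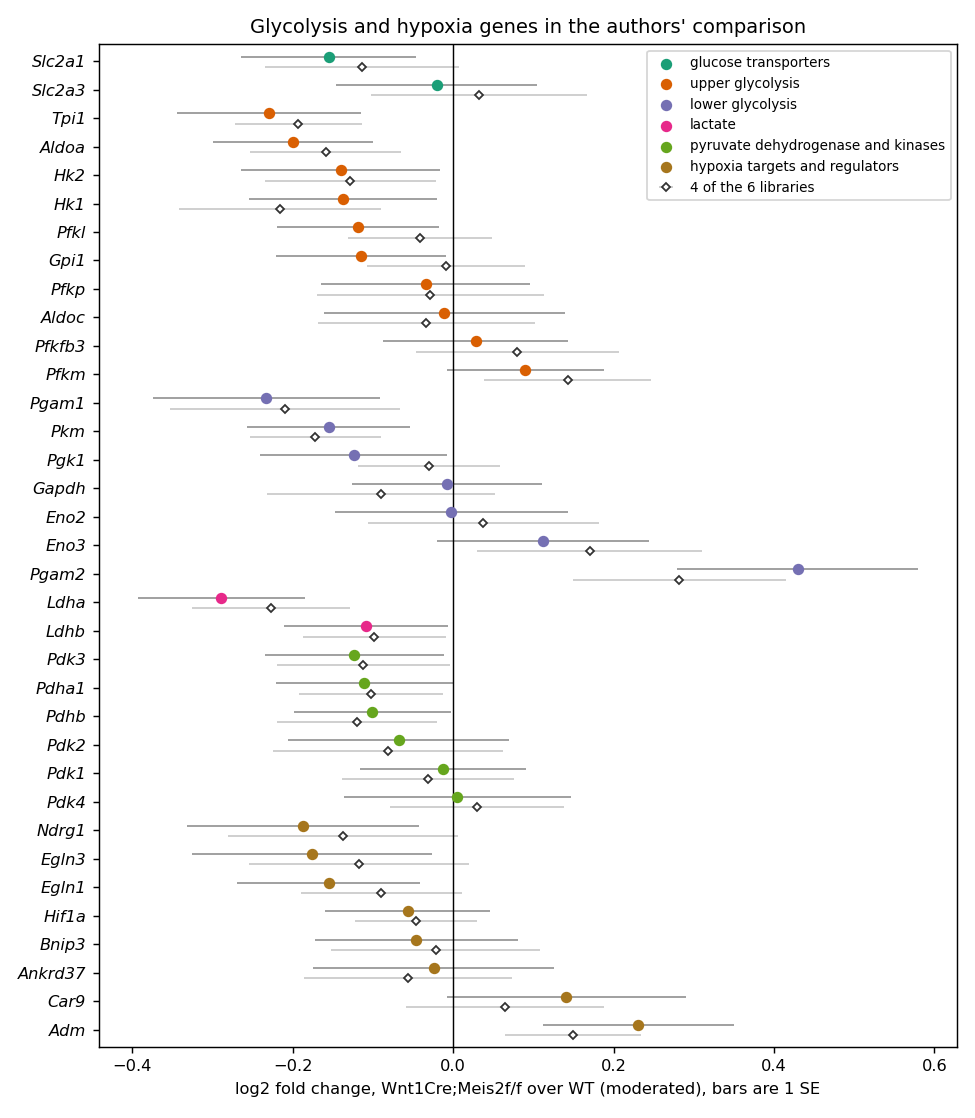
Moderated log2 fold change of the 35 measured genes, mutant over WT, from the comparison of all 6 libraries (filled circles, coloured by role) and of 4 of them (open diamonds), with bars of 1 SE. Most circles lie between -0.29 and 0, and Pgam2 at 0.43 stands to the right of all others.

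Both glucose transporters lay within 2 SE of 0. Slc2a1, the widely expressed transporter GLUT1, had a base mean of 484 and stood at -0.16 on the log2 scale (SE 0.109, adjusted p 0.710) per the authors' deposited table. For Slc2a3, the high-affinity transporter GLUT3, these were 264 and -0.021 (SE 0.125, adjusted p 0.978), and 0.032 with 4 libraries, per the authors' deposited table. Per kb of the longest coding transcript, Slc2a1 had a base mean of 149 and Slc2a3 one of 66.6.

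Upper glycolysis turns glucose into triose phosphates. Its most abundant gene per length was Tpi1, which encodes the isomerase that interconverts the triose phosphates (chromosome 6, 124810586 to 124814296, GRCm38), with a base mean of 2909 and of 1810.3 per kb. Its log2 fold change was -0.23 (SE 0.114, nominal 95% interval -0.45 to -0.0053), with a p of 0.0449 and an adjusted p of 0.455, per the authors' deposited table of 6 libraries. With 4 libraries it was -0.19 (SE 0.079), with a p of 0.0146 and an adjusted p of 0.264, per the authors' deposited table. The estimated means behind the value of 6 libraries are 2629 normalised reads in the mutant and 3189 in WT. Aldoa, the main aldolase outside liver and brain (chromosome 7, 126795234 to 126800751), had a base mean of 1394.5 and a log2 change of -0.20 (SE 0.0999, adjusted p 0.458) per the authors' deposited table. Its estimated means are 1284 normalised reads in the mutant and 1505 in WT. The interval of Tpi1 and that of Aldoa ended just short of 0, and neither gene passed the adjusted threshold.

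The hexokinases trap glucose inside the cell. Hk2, the HIF-responsive hexokinase, had a log2 change of -0.14 (SE 0.124) and Hk1, the constitutive one, -0.14 (SE 0.117), with adjusted p of 0.799 and 0.790, per the authors' deposited table. With 4 libraries Hk2 stood at -0.13 and Hk1 at -0.22 (adjusted p 0.928 and 0.686) per the authors' deposited table. Gpi1, the next enzyme, and Pfkl, the liver-type phosphofructokinase, had log2 fold changes of -0.12 and -0.12 with 6 libraries and -0.0092 and -0.041 with 4, per the authors' deposited table. Pfkm, the muscle-type phosphofructokinase, lay on the other side of 0, at 0.090 (SE 0.098) with 6 and 0.14 (SE 0.104) with 4 libraries, per the authors' deposited table. The other 3 genes of this step group, Pfkp, Aldoc and Pfkfb3, which makes the activator of phosphofructokinase, had values from -0.034 to 0.028 with 6 and from -0.034 to 0.080 with 4 libraries per the authors' deposited table. Per kb of transcript the phosphofructokinase genes had base means of 360 for Pfkl, 314 for Pfkm and 35.5 for Pfkp.

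Lower glycolysis yields ATP and pyruvate. Pkm, the pyruvate kinase gene of all tissues but liver and red cells, had the highest base mean of the 36, 4149.6, and a log2 change of -0.16 (SE 0.102, adjusted p 0.677) per the authors' deposited table. With 4 libraries it was -0.17 (SE 0.081), with a p of 0.0351 and an adjusted p of 0.441, per the authors' deposited table. Pgk1, which makes the first ATP of the pathway, was at -0.12 with 6 and -0.030 with 4 libraries, with adjusted p of 0.818 and 0.9997, per the authors' deposited table. Pgam1, the phosphoglycerate mutase of most tissues, had a base mean of only 98.7 and a log2 change of -0.23 (SE 0.142, adjusted p 0.626) per the authors' deposited table. With 6 libraries the nominal 95% intervals of these 3 genes all include 0. Gapdh, which makes NADH from glyceraldehyde phosphate, was at -0.0077 (SE 0.118, adjusted p 0.993) with 6 and -0.090 with 4 libraries per the authors' deposited table. Eno1 was given no adjusted p.

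The muscle isoform Pgam2 had the highest moderated value of the 35 (chromosome 11, 5801640 to 5803733). Its base mean was 45.3 and its log2 fold change 0.43 (SE 0.15, nominal 95% interval 0.14 to 0.72), with a p of 0.00424 and an adjusted p of 0.110, per the authors' deposited table. With 4 libraries it was 0.28 (SE 0.132), with a p of 0.0332 and an adjusted p of 0.432, per the authors' deposited table. At so few reads the moderation is strong: undone, the log2 estimates are 0.88 with 6 and 0.92 with 4 libraries, the first corresponding to 58.7 normalised reads in the mutant and 31.9 in WT. Undone, the estimates of Adm are higher, at 1.17 and 1.53, from fewer reads still. Eno3, the muscle enolase, and Pfkm had log2 fold changes of 0.11 and 0.090 (adjusted p 0.876 and 0.856) per the authors' deposited table. Of 20 measured skeletal muscle markers (Myf6 was under the base mean minimum), 11 rose and 0 fell, with a median log2 fold change of 0.48, per the authors' deposited table of 6 libraries. With 4 libraries 3 rose, Myog, Myl1 and Tnnt1, and the median was 0.26, per the authors' deposited table. Both medians are moderated, so they cannot be set against the undone values of Pgam2. The moderation differs between the comparisons, so the lower median with 4 libraries is no measure of a weaker difference. The part of muscle cells in the values of Pgam2, Eno3 and Pfkm was not tested.

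Eno2, the enolase typical of neurons, had a base mean of 125 and a log2 change of -0.0024 (SE 0.145), and Aldoc one of 48.3 and a log2 change of -0.011 (SE 0.15), per the authors' deposited table. Of 9 measured neuron markers 5 fell and 0 rose, with a median of -0.49, per the authors' deposited table of 6 libraries. All 9 lay below 0, with values from -0.68 (Tubb3) to -0.13 (Stmn2, SE 0.135), per the authors' deposited table. The summed estimated means of the 9 markers were 728 normalised reads in the mutant and 1263 in WT. With 4 libraries 1 of 8 fell, Dcx, and the median was -0.20, per the authors' deposited table. Elavl3, Stmn3, Snap25 and Pou4f1 were under the base mean minimum. The part of neurons in the values of Eno2 and Aldoc was not tested.

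Of the 2 genes that turn pyruvate into lactate, Ldha had the lowest moderated value of the 35. Ldha, the lactate dehydrogenase subunit induced by hypoxia (chromosome 7, 46841475 to 46855627), had a base mean of 1219.9 and a log2 change of -0.29 (SE 0.105, nominal 95% interval -0.49 to -0.084), with a p of 0.00573 and an adjusted p of 0.139, per the authors' deposited table. With 4 libraries it was -0.23 (SE 0.099), with a p of 0.0216 and an adjusted p of 0.335, per the authors' deposited table. With the moderation undone its log2 estimate is -0.34, and that of Pgam1 -0.35. The estimated means of Ldha are 1078 normalised reads in the mutant and 1361 in WT, a ratio of 0.792. Ldhb, the subunit of oxidative tissues, had a base mean of 1379.3 and a log2 change of -0.11 (SE 0.102, adjusted p 0.819) per the authors' deposited table. Per kb of transcript Ldhb stood at 1057.8 and Ldha at 672.

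Pyruvate enters the mitochondrial route through pyruvate dehydrogenase. Pdha1 and Pdhb, which encode the subunits of pyruvate dehydrogenase itself, had log2 fold changes of -0.11 and -0.10 (adjusted p 0.832 and 0.827) per the authors' deposited table. Of the inhibitory kinases, Pdk3 stood at -0.12, Pdk2 at -0.068, Pdk1, the HIF target, at -0.012 and Pdk4 at 0.0054, with adjusted p of at least 0.808, per the authors' deposited table. With 4 libraries these were -0.11, -0.081, -0.031 and 0.029 per the authors' deposited table. Pdk4, a kinase induced by fasting, was almost silent, with a base mean of 5.78 per kb of transcript, while Pdk3 had 294 and Pdk1 147.

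Of the 8 hypoxia genes 6 lay below 0 and 2 above, with 6 and with 4 libraries. Hif1a was abundant, with a base mean of 3971.4, and had a log2 change of -0.057 (SE 0.103, nominal 95% interval -0.26 to 0.14, adjusted p 0.931) per the authors' deposited table. Egln1, the main HIF prolyl hydroxylase, was at -0.16 (SE 0.114), the HIF-induced Egln3 at -0.18 (SE 0.15) and Ndrg1, a stress-responsive gene, at -0.19 (SE 0.144), with adjusted p of 0.733, 0.790 and 0.751, per the authors' deposited table. Bnip3, which acts in the removal of mitochondria, and Ankrd37, a target of HIF with no known enzyme activity, were at -0.046 and -0.024 (adjusted p 0.952 and 0.979) per the authors' deposited table. Car9, a carbonic anhydrase of hypoxic cells, and Adm, the vasodilator peptide adrenomedullin, lay above 0, at 0.14 (SE 0.149) and 0.23 (SE 0.120), with adjusted p of 0.851 and 0.488, per the authors' deposited table. With 4 libraries Car9 was at 0.065, Adm at 0.15, Egln1 at -0.090, Egln3 at -0.12, Bnip3 at -0.022 and Ankrd37 at -0.056 per the authors' deposited table. Adm had a base mean of 10.3 and Car9 one of 36.9, so these values rest on few reads, and their estimated means of 14.2 and 40.9 normalised reads in the mutant against 6.32 and 32.8 in WT are uncertain. The 8 genes had a median of -0.051 per the authors' deposited table.

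The glycolytic genes differ in how well reads can be assigned to them, since processed pseudogenes copy several of them. A window of Gapdh coding sequence shows this. It spans bases 415 to 464 of the coding sequence in exon 4, lies at chr6:125162898-125162947 on the minus strand of GRCm38, and occurs unchanged in annotated transcripts of 84 other genes, 80 of them pseudogenes.
Gapdh window: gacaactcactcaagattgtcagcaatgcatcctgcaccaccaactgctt
Over the coding transcripts of GENCODE vM21, 58.4% of the 50-base windows of Gapdh occur in another gene, and 53.1% of its 100-base windows. The shares for 50 bases are 68.0% for Pgk1, 49.5% for Eno1, 46.3% for Bnip3 and 41.5% for Pgam1, while 24 of the 36 genes share under 2%. Between these lie Pdhb (30.26%), Ldhb (20.99%), Gpi1 (18.95%), Pkm (18.35%), Ldha (10.4%), Aldoa (8.46%) and Tpi1 (6.83%). Pgam2, Hif1a and Slc2a1 share 0. For 100 bases the shares are 67.0% for Pgk1, 39.7% for Pgam1, 39.5% for Eno1 and only 17.8% for Bnip3.

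Some genes with high shares had low levels. Gapdh, usually among the most abundant transcripts of a cell and a common reference gene, had a base mean of 110 (77.4 per kb of transcript), against 2909 (1810.3 per kb) for Tpi1, per the authors' deposited table. Eno1, the main enolase, had a base mean of 0.314 with 6 libraries and was listed at 0 with 4, per the authors' deposited table. Its base mean equals 2 reads in the mutant library that the smaller comparison leaves out. Pgk1, which shares more of its sequence than either, kept a base mean of 812 per kb. Eno1b, an intronless copy of Eno1 on chromosome 18 (48045335 to 48048412), shares 85.2% of its 50-base windows with other genes. It had a base mean of 126 and fell by 0.59 on the log2 scale (SE 0.148, adjusted p 0.00403) with 6 libraries, but was not called with 4 (-0.45, SE 0.143, adjusted p 0.0634), per the authors' deposited table. Reads of Eno1 and Eno1b cannot be told apart where the sequences are the same, so this fall cannot be given to either gene, and the same holds for the values of Gapdh, Pgk1, Pgam1 and Bnip3 and their copies.

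**Figure D2:**
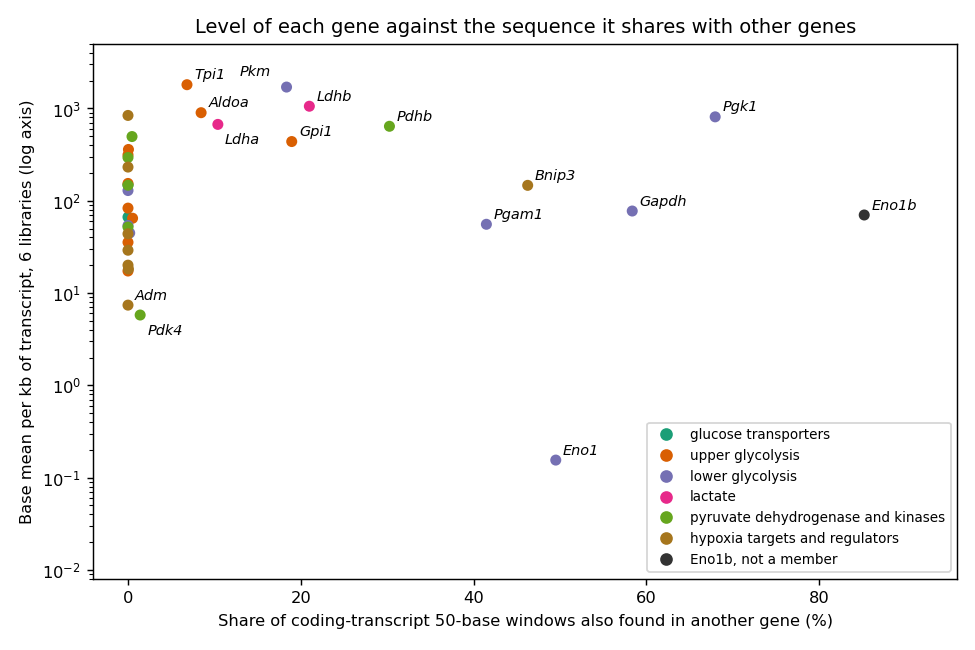
Base mean per kb of the longest coding transcript (log axis, 6 libraries) against the percentage of 50-base windows of coding transcripts that also occur in another gene, for the 36 genes and Eno1b. Eno1 at 0.155 per kb lies far under all others, Gapdh at 58.4% shared has 77.4 per kb, and Pgk1 at 68.0% has 812.

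Several of the 35 genes differed between sets of libraries that each hold both genotypes. Subtracting the 4-library from the 6-library base means gives the mean normalised count of the 2 libraries outside the smaller comparison, 1 mutant and 1 WT, with an uncertainty from rescaling of at most 0.034 on the log2 scale. For Gapdh this mean was 182 in those 2 libraries, against 74.1 in the other 4, a ratio of 2.45. That log2 ratio of 1.29 ranks 1 among the 10622 genes whose base mean is 100 or more. Eno2 had means of 159 and 108 normalised reads in the 2 and the 4 libraries, Car9 of 43.8 and 33.4, and Slc2a3 of 296 and 248. Most enzymes lay on the other side, as Hk2 did with 687 in the 2 libraries and 930 in the 4, and Tpi1 with 2428 and 3150. All 16 members whose base mean was at least 500 were lower in the 2 libraries, with a median log2 ratio of -0.26, where all genes at that level had a median of -0.054 and a middle 50% from -0.20 to 0.072. Since each side holds both genotypes, these ratios are no genotype differences and have no test. Ldha had 1116 normalised reads in the 2 libraries and 1272 in the 4, and Pgam2 had 44.8 and 45.5. Marker lists split the same libraries: the median log2 ratio was 0.64 for neuron, 0.45 for epithelium, 0.33 for Schwann cell and glia, -0.27 for palatal mesenchyme and -0.37 for skeletal muscle markers. It was 0.22 for endothelium, with all 8 markers above 0, 0.16 for erythroid and 0.074 for macrophage markers. The part of these cell types in the ratios of Gapdh, Eno2 and the enzymes was not tested.

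**Figure D3:**
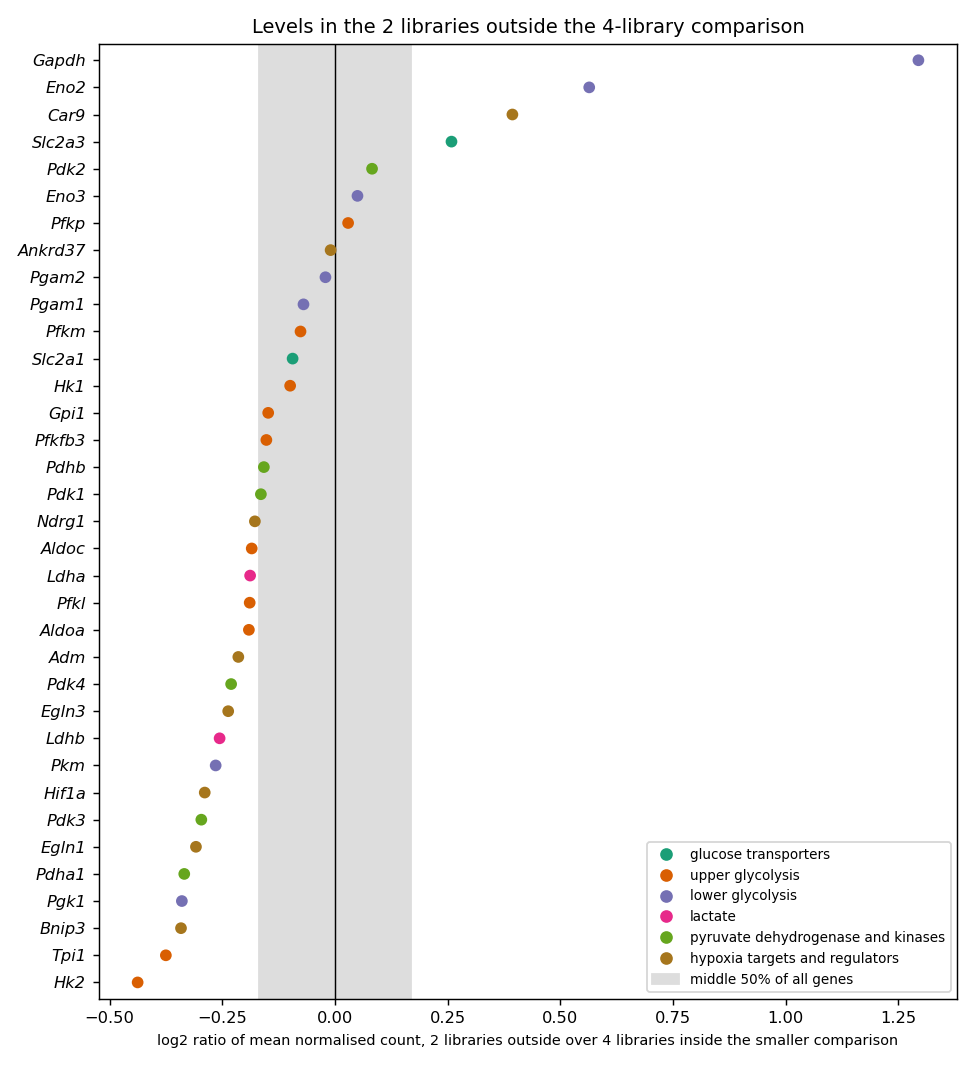
Log2 ratio of the mean normalised count in the 2 libraries outside the 4-library comparison (1 per genotype) over that in the 4 libraries inside it, for the 35 measured genes, coloured by role. Gapdh lies at 1.29 and Eno2 at 0.56, while most enzymes lie left of 0 and Hk2 at -0.44 is the lowest, with the grey band marking the middle 50% of all measured genes.

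Beyond the 36 genes, 87 further genes of sugar metabolism and hypoxia were listed, and 79 were measured. Of these 3 rose, 1 fell and 75 did not pass the test with 6 libraries, where 1.75% of all genes were higher and 1.16% lower, and the median log2 fold change of the 79 was 0.013, per the authors' deposited table. All 4 calls were in the list of 31 other hypoxia targets. Lox, the copper enzyme that cross-links collagen and elastin, rose by 0.81 in log2 units (SE 0.102, adjusted p 7.83e-13) and by 0.83 with 4 libraries, per the authors' deposited table. Plod2, which hydroxylates collagen lysines for cross-linking, rose by 0.32 (SE 0.080, adjusted p 0.00373), and Rora, a nuclear receptor, by 0.35 (SE 0.097, adjusted p 0.0133), both in log2 units, per the authors' deposited table. Vldlr, a lipoprotein and reelin receptor, fell by 0.55 (SE 0.095, adjusted p 1.73e-06) per the authors' deposited table. All 4 were also called with 4 libraries. The collagen hydroxylase genes P4ha1 and P4ha2, likewise hypoxia targets, stood at -0.088 and 0.047 (adjusted p 0.833 and 0.937) per the authors' deposited table. The 4 most abundant genes of this list that were not called, by base mean, were Kdm3a, a histone demethylase, at -0.052, Vegfa, the vessel growth factor, at 0.039, Bnip3l at -0.10 and Tfrc, the transferrin receptor, at -0.092 (adjusted p 0.922, 0.941, 0.851 and 0.812), per the authors' deposited table. Ddit4, Fam162a and Hilpda, each a HIF target, had log2 fold changes of -0.26, -0.26 and -0.27 with unadjusted p under 0.05 and adjusted p of 0.397, 0.313 and 0.428 per the authors' deposited table. With 4 libraries they were at -0.13, -0.20 and -0.20, with unadjusted p of 0.305, 0.104 and 0.145, per the authors' deposited table. Of the 31 genes 16 lay below 0.

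Of the genes around the pathway 0 passed the threshold. None of 7 transporter genes was called (DESeq2 Wald test, 1 lower at an unadjusted p under 0.05), and that one was Slc16a1, the monocarboxylate transporter that carries lactate, at -0.23 (SE 0.098, adjusted p 0.290), per the authors' deposited table. Slc16a3, the HIF-induced lactate exporter, stood at -0.24 (SE 0.127, adjusted p 0.517) with 6 and at -0.11 with 4 libraries per the authors' deposited table. Of the 7 transporter genes 4 lay above 0, among them Slc2a4 at 0.12 (adjusted p 0.832), and 3 below, with a median of 0.027, per the authors' deposited table. The 7 genes of the HIF machinery had a median of 0.032, with Arnt, the partner of HIF, at 0.013, Hif1an, the asparagine hydroxylase of HIF, at 0.032, Egln2 at -0.034 (0.045 with 4 libraries) and Vhl, which marks HIF for breakdown, at -0.18 (adjusted p 0.679), and 0 were called (DESeq2 Wald test, 0 at an unadjusted p under 0.05), per the authors' deposited table. Among 11 other glycolytic isoforms and regulators 0 were called (0 at an unadjusted p under 0.05), 8 lay above 0 and the median was 0.053, per the authors' deposited table. Pfkfb2, the most abundant of them, stood at 0.14 (adjusted p 0.781) per the authors' deposited table. Bpgm, which makes the haemoglobin regulator 2,3-bisphosphoglycerate, was the lowest at -0.19 (adjusted p 0.658), per the authors' deposited table. Of 7 genes of mitochondrial pyruvate use 6 lay below 0 with a median of -0.077 and 0 calls (0 at an unadjusted p under 0.05), among them Dld at -0.11, per the authors' deposited table.

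**Figure D4:**
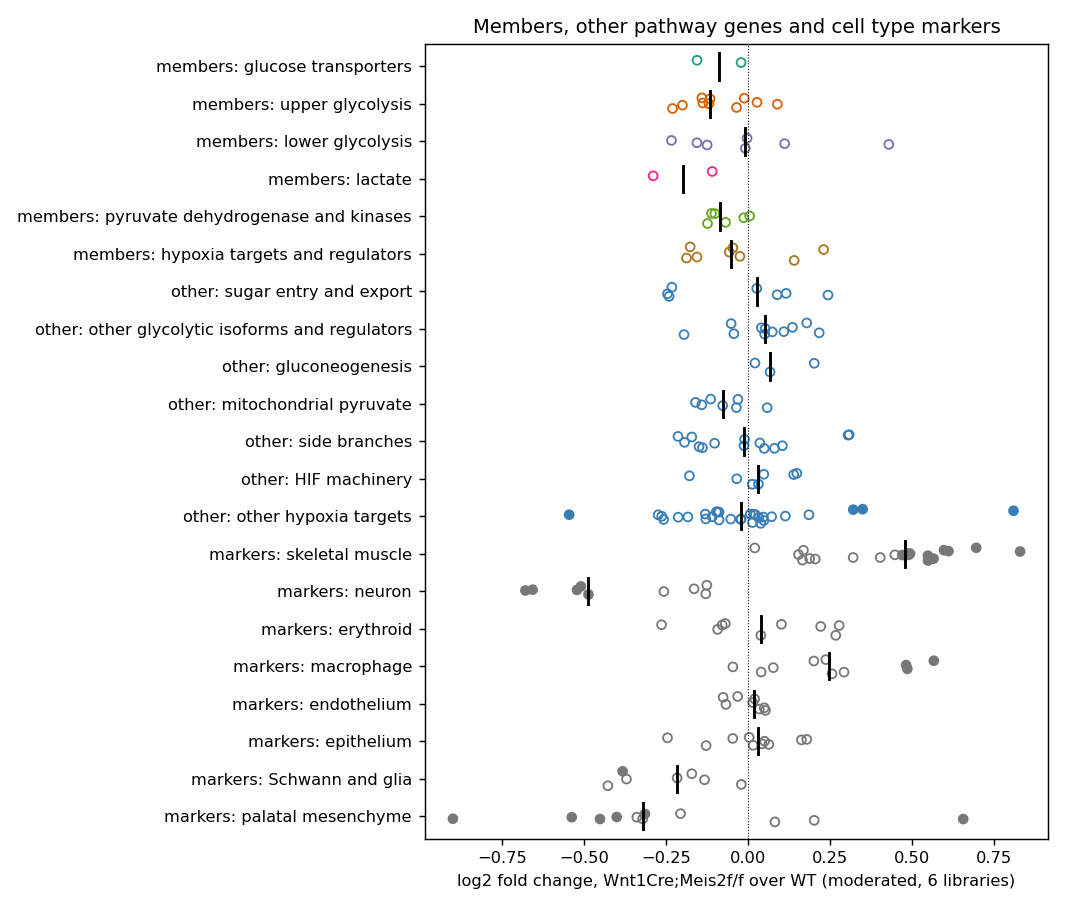
Moderated log2 fold change, mutant over WT with 6 libraries, of each measured gene by list, with filled points for an adjusted p under 0.05 and a black bar for the median. Points of the 36-gene module are all open, the other hypoxia targets hold 4 filled points, and the muscle and neuron markers lie on opposite sides of 0, with medians of 0.48 and -0.49.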

How the data were processed

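RNA was amplified before TruSeq library preparation, per the labels' protocols. HISAT2, featureCounts and DESeq2 and the builds GRCm38 and mm10 are named in the submitters' processing notes; versions, settings, strand use and the treatment of reads with several matches are, in the sources used here, not given. The deposited tables give per gene a base mean (a signal, counts divided by size factors), a log2 fold change with its SE, a Wald score, and a p-value with its adjusted p-value, all as deposited by the authors. The series text describes pairs of libraries. Genes with a single read take 6 levels of base mean in the first table and 4 of these in the second, so the tables hold 6 and 4 libraries, and the third table, 1613 rows equal to rows of the first (relative tolerance 1e-06), was not used. Spreadsheet dates had replaced 27 names, none of them a member.

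Calls use the authors' adjusted p under 0.05, in place of any test of single libraries. The moderated fold change was read as a ridge estimate, whose SE peaks at 0.15 and 0.144 in the tables, and was undone from that relation. The same SE can stand for strong or weak moderation, and the base mean alone decided between them. The relation was tested on simulated data in which spread depended on base mean alone. That test does not cover abundant genes of unusually wide spread, such as Acta1 and Myh8 among the muscle markers, for which no undone values are given. Estimated means per genotype follow from it and the base mean. Base means of the 4-library table were divided by the mean ratio of single-read levels, 1.03 to 1.04, before subtraction. Coordinates, transcript lengths and shared windows are from GENCODE vM21 on GRCm38, which need not be the authors' annotation. The sources used here give no read length, so windows of 50 and 100 bases were used, leaving out genes that overlap the member. All 36 members were named, with further pathway genes that were called or among the 4 of their list with the highest base mean, while Eno1b, Ddit4, Fam162a, Hilpda, P4ha1, P4ha2, Pygl, Pygm, G6pdx, Pgls, Fbp2 and Pck1 were chosen after their values were seen. Members, lists and motifs were chosen with earlier results of these data known. Python 3.11.15, pandas 2.3.3 and matplotlib 3.10.9 were used.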

Additional observations from a re-analysis of the deposited data

How the results depend on the processing

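Calls of the 36 genes stayed at 0 higher and 0 lower with 4 libraries and at an adjusted p under 0.1. A base mean minimum of 100 or none, and centring on the median of all measured genes (-0.013 on the log2 scale), leave the deposited adjusted p as it is and could add no call, so they say nothing on stability. The other pathway genes gave 3 higher and 1 lower under each of these. The moderated median log2 fold change of the 36 genes ran from -0.11 (base mean of at least 100) to -0.056 (4 libraries). Undoing the moderation, an alternative chosen after seeing the data, gave -0.115 with 6 and -0.105 with 4 libraries. The median of the other pathway genes ran from 0.0072 to 0.027. Direction turned for 2 members with 4 libraries, Slc2a3 (0.032) and Eno2 (0.038), and after centring for 4, Aldoc (0.0024), Gapdh (0.0057), Eno2 (0.011) and Pdk1 (9.73e-04), all far from the threshold, and the cause was not tested. Eno1b lost its call with 4 libraries and Meis2 gained one. No paired analysis was possible because the tables hold no values per library, and for the same reason single replicates could not be left out in turn beyond the authors' own 4-library table. Which replicates that table leaves out is not known. Depth limits Adm, Pdk4, Car9, Ankrd37, Pgam2 and Aldoc, whose base means are under 50, and for these the deposited fold change understates any difference.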

Other observations

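Side branches of glucose metabolism held 14 measured genes and 0 calls over all genes (DESeq2 Wald test), with 2 higher and 1 lower at an unadjusted p under 0.05, per the authors' deposited table. Pygl, the liver glycogen phosphorylase, stood at 0.31 (SE 0.113, adjusted p 0.142) with 6 and 0.31 with 4 libraries, and Pygm, its muscle counterpart, at 0.31 (SE 0.149, adjusted p 0.434), per the authors' deposited table. Pygb, a more abundant phosphorylase gene with a base mean of 2079.6, stood at -0.010 with 6 and 0.065 with 4 libraries, per the authors' deposited table. Tkt, the transketolase of the pentose phosphate pathway, was the most abundant of the branch genes with a base mean of 3594.1 and stood at -0.21 (SE 0.095, adjusted p 0.342) per the authors' deposited table. The oxidative enzymes of that pathway, G6pdx, Pgls and Pgd, stood at -0.19, -0.17 and -0.14 (adjusted p 0.594, 0.740 and 0.715) per the authors' deposited table. Of 6 gluconeogenesis genes 3 were measured, Pcx, Pck2 and G6pc3, at 0.068, 0.20 and 0.022, none called (DESeq2 Wald test, 0 at an unadjusted p under 0.05), while Fbp1, Fbp2 and Pck1 had base means of 4.48, 1.26 and 0.807, per the authors' deposited table.

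Erythroid, endothelial and epithelial markers, whose cells can differ in oxygen supply and metabolism, had medians of 0.039, 0.018 and 0.030 over 9, 8 and 10 measured genes, with 0 called (DESeq2 Wald test, 2, 0 and 0 at an unadjusted p under 0.05), per the authors' deposited table. Macrophage markers had a median of 0.25 over 10 genes, 3 of them risen, and 2 with 4 libraries, and Schwann cell and glial markers one of -0.22 over 7, with Ngfr fallen in the 6-library comparison alone, per the authors' deposited table. Of 11 palatal mesenchyme markers 5 fell, 1 rose and the median was -0.32, where 1.16% of all genes were lower and 1.75% higher, per the authors' deposited table. With 4 libraries 5 fell and 2 rose, against 0.99% and 1.31% of all genes. Pdgfra, named above for its abundance, stood at 0.20 with 6 (DESeq2 Wald test, adjusted p 0.335) and 0.23 with 4 libraries (adjusted p 0.0473), per the authors' deposited table.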
